A study of Mus musculus with 8 samples.

Results

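Genes of GABA and glycine signalling were followed through single-nucleus RNA counts of the mouse cerebral cortex. The set held 27 genes, chosen by name out of 32285 in the count files: 9 subunits of the GABA-A receptor, 2 subunits of the GABA-B receptor and 3 KCTD proteins that bind it, 4 glycine receptor subunits with their anchor gephyrin, 4 genes of GABA synthesis, loading and breakdown, and 4 plasma membrane carriers. The members were chosen with earlier results of these data known. Glra3 was on the list because earlier results of these same data showed a genotype difference in it, so its genotype values are given here as a description without a test. The animals were P25 mice of strain C57BL/6J, 4 wild type (WT) and 4 heterozygous for Chd8 (Chd8+/-, written Chd8het). Each genotype had 2 male and 2 female libraries, each from a separate animal. Chd8 encodes a chromatin remodeller. The mutant allele is not described in the sources used here. The labels describe matched WT and heterozygous animals of like sex and litter, cortex without its medial part, frozen tissue, nuclei isolated side by side, and 10x 3' libraries of v3 chemistry. In each sex of each genotype replicate 1 carried a single index and replicate 2 a dual index, so that index type was balanced over genotype.

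GABA is the main inhibitory transmitter of the cortex. Gad1 and Gad2 make it from glutamate, the vesicular carrier Slc32a1 loads it, pentameric GABA-A receptors pass chloride when it binds, and GABA-B receptors act through G proteins. Whether a chloride channel inhibits depends on the chloride level inside the cell, which Slc12a5 (KCC2) lowers by export and Slc12a2 (NKCC1) raises by import. Glycine receptors are related chloride channels, best known from spinal cord and brain stem, and gephyrin anchors both kinds of channel at inhibitory synapses.

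The count of Chd8 itself did not separate the genotypes: over all nuclei it was 75.1 to 81.5 CPM (defined below) in the WT and 75.8 to 89.6 CPM in the Chd8het libraries, from 4815 to 6858 UMIs per library. With the allele not described, this neither checks nor contradicts the labels, on which every genotype difference given here rests. Libraries held 69.5 to 98.1 M UMIs (unique molecular identifiers, counted molecules). After filtering, 78168 nuclei remained, 7509 to 11020 per library, with a median of 4976 to 7528 UMIs per nucleus. Each nucleus was assigned to a type by 133 marker genes, none of them a member of the set. In this way 50454 nuclei (64.5%) fell into 21 types and 27714 stayed unassigned. Type names mean resemblance to a marker list, and in each of the 21 types all listed markers were at least 2-fold above the other nuclei. The same markers made the assignment, so this rise is no separate check of the names. Types were excitatory neurons by layer and projection (IT intratelencephalic, ET extratelencephalic, NP near-projecting, CT corticothalamic), interneurons named by Pvalb, Sst, Vip or Lamp5, striatal projection neurons, glia and vascular cells. Striatal neurons had no nuclei in some libraries and are left out of the comparisons between types, which leaves 20 types. Levels are CPM, the UMIs of a gene per M (mega) UMIs summed over the nuclei of that type in 1 library, and a mean ± SD is over 8 libraries unless stated. Markers of other cells were read in every type: Slc17a7, the vesicular glutamate carrier of excitatory neurons, was at 93.7 to 209 CPM in the 8 non-neuronal types, at 41.4 to 63.9 CPM in the 4 interneuron types and at 152 to 270 CPM in the 8 excitatory types. A low level of a neuronal gene in a non-neuronal type is therefore not read here as expression by those cells.

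Promoter sequences are shown for 4 members whose levels divided the types: Glra2 and Glra3, glycine receptor alpha subunits with different highest types, and Slc6a11 and Gabrg1, both highest in astrocytes. The stretches are the 150 bases before the annotated start (RefSeq, GRCm38.p6, written 5′ to 3′ on the gene's strand), and 22 of the 27 members had an entry. Capitals mark a CCAAT box (CCAAT) or a GC box (GGGCGG) on either strand. The Glra2 stretch is chrX:165327394-165327543 on the minus strand, Glra3 chr8:55940268-55940417 on the plus strand, Slc6a11 chr6:114131091-114131240 on the plus strand and Gabrg1 chr5:70842618-70842767 on the minus strand.
Glra2: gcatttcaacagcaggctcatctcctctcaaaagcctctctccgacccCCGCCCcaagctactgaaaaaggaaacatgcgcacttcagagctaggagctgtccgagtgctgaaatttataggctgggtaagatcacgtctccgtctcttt
Glra3: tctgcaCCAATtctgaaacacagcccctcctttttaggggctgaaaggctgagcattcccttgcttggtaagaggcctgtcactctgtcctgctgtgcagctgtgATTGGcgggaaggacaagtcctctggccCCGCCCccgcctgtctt
Slc6a11: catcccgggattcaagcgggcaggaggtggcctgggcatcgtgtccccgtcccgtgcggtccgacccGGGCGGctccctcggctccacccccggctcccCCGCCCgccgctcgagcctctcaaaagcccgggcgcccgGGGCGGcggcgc
Gabrg1: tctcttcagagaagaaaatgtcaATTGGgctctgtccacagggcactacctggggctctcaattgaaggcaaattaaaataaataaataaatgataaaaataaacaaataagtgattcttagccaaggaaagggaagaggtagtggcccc
Over all 32851 promoters in the table, 24.5% hold a CCAAT box and 28.6% a GC box in the same 150 bases. Glra3 holds 2 CCAAT boxes and 1 GC box, Glra2 1 GC box, Slc6a11 3 GC boxes and Gabrg1 1 CCAAT box. The homeodomain core TAATTA, present in 2.73% of the promoters, is in none of these 4 stretches. The stretches of the astrocyte pair differ in base composition, with 78.7% G and C in the Slc6a11 stretch and 38.7% in the Gabrg1 stretch.

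The levels by type show where each gene was read. Of the 27 members, 11 were highest in an interneuron type, 5 in an excitatory type and 11 in a non-neuronal type. In 12 the lowest library of the highest type lay above the highest library of the next type, so the order was clear of the spread between libraries: 6 of these peaked in interneurons, 6 in non-neuronal types and none in excitatory neurons.

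**Figure D1:**
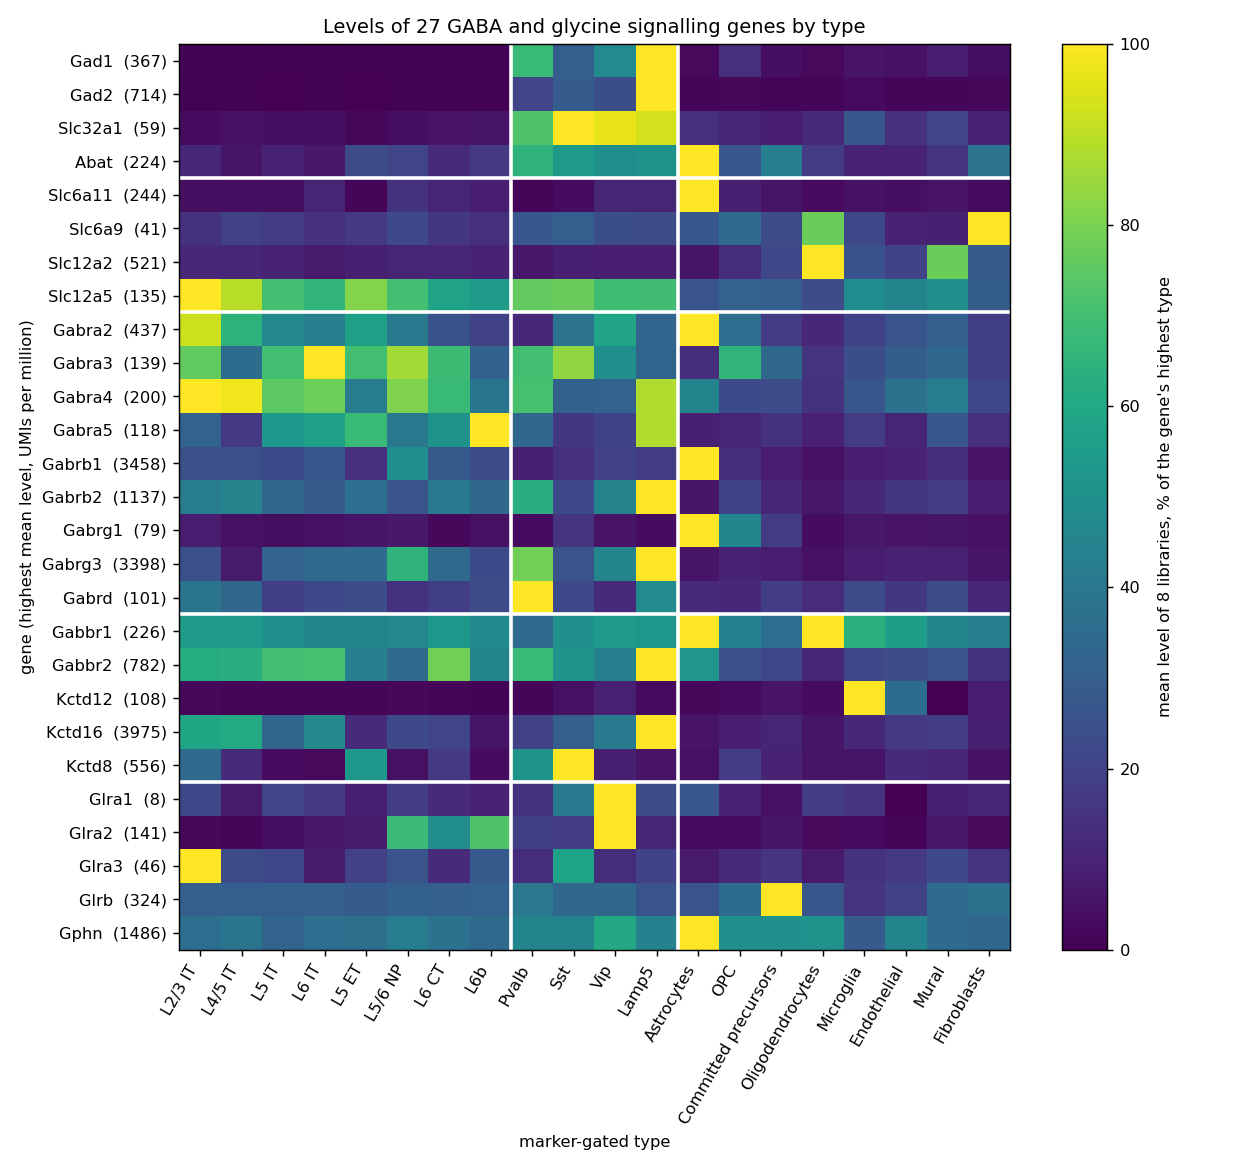
Mean level of each member over 8 libraries in 20 types, as a percentage of that gene's highest type (colour), with the highest mean in CPM beside each name; white lines divide roles (rows) and excitatory, interneuron and non-neuronal types (columns). Gad1, Gad2 and Slc32a1 are bright in the 4 interneuron columns, Slc6a11 in astrocytes, Kctd12 in microglia and Slc12a2 in oligodendrocytes.

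Synthesis and loading genes marked the 4 interneuron types. Gad1, the larger glutamate decarboxylase, was highest in Lamp5 interneurons, with 316, 374 and 416 CPM in the lowest, median and highest library. It was 249 ± 16.9 CPM in Pvalb, 177 ± 43.5 in Vip and 110 ± 22.5 in Sst interneurons, against 2.1 to 4.2 CPM in the 8 excitatory types. Gad2, the synaptic form of the enzyme, was also highest in Lamp5 interneurons (580.5, 742 and 760 CPM in the lowest, median and highest library). Its next type was Sst with 207 ± 29.7 CPM, and Pvalb interneurons had 148 ± 22.1 CPM. Of the UMIs of both decarboxylases together, Gad1 made up 62.8% in Pvalb, 50.8% in Vip, 34.6% in Sst and 34.0% in Lamp5 interneurons. The Pvalb libraries (58.1 to 66.9%) overlapped those of Vip (41.4 to 61.5%) and lay above those of Sst and Lamp5. Among non-neuronal types Gad1 was highest in oligodendrocyte precursors (OPC), at 50.2 ± 6.88 CPM (42.8 to 61.8), while astrocytes had 9.80 ± 2.66 CPM. Every OPC library lay above every astrocyte library. Gad2 in OPC was 14.2 ± 7.77 CPM, within the 9.0 to 19.8 CPM of the non-neuronal types. Slc32a1, the carrier that fills vesicles with GABA or glycine, was at 26.4, 55.2 and 97.3 CPM in the lowest, median and highest library of Sst interneurons and at a like level in Vip (57.4 ± 23.1), Lamp5 and Pvalb (43.1) interneurons.

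The wide range of Slc32a1 followed index type. Sst interneurons had 97.3, 83.6, 93.8 and 77.2 CPM in the single-indexed libraries and 26.4, 31.6, 33.1 and 32.7 in the dual-indexed ones, with no overlap. In all nuclei together Slc32a1 was lower in dual-indexed libraries by a log2 difference of -1.12, and the index term was called for 12 of the 27 members, 6 higher and 6 lower, beside 34.0% of all genes tested (edgeR, adjusted over all genes). Means over 8 libraries of these genes therefore mix index types.

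Abat, the transaminase that breaks GABA down, was highest in astrocytes (171, 218 and 289 CPM in the lowest, median and highest library). It stood at 112 to 146 CPM in the 4 interneuron types and at 13.03 to 51.9 CPM in excitatory types. Slc6a11 (GAT-3), which takes GABA up, was the most type-specific carrier: astrocytes had 192, 239 and 312 CPM in the lowest, median and highest library, 6.74 times the mean of the next type, L5/6 NP neurons. Slc6a9 (GlyT1), which takes up glycine, was low throughout. Its highest mean was in fibroblasts (24.2, 38.6 and 63.3 CPM in the lowest, median and highest library, from 98 UMIs in all), followed by oligodendrocytes with 32.0 ± 7.01 CPM, and these ranges overlapped.

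On average the balance of the chloride carriers, as UMIs read in each type, differed between non-neuronal types and neurons. Slc12a5 was highest in L2/3 IT neurons (110, 137 and 148 CPM in the lowest, median and highest library) and was at 74.1 to 135 CPM in the 12 neuronal types, against 31.7 to 67.8 in the non-neuronal ones. Slc17a7, a gene of excitatory neurons, was at 93.7 to 209 CPM in the non-neuronal types. How much of the Slc12a5 read there was neuronal RNA was not tested, and the shares below include it. Slc12a2 was highest in oligodendrocytes, with 414, 539 and 609 CPM in the lowest, median and highest library, and in mural cells (404 ± 100 CPM, 338 UMIs in all), and was 33.3 to 59.7 CPM in neurons. Astrocytes, at 28.8 CPM, were below every neuronal type. Of the UMIs of both carriers together, Slc12a2 took at most 42.2% in any neuronal type and at least 45.2% in any non-neuronal one, on average. The lowest non-neuronal type, astrocytes (33.3 to 52.7% over libraries), overlapped every neuronal type except Pvalb interneurons, as did endothelial cells (35.0 to 75.6%). L6b neurons (26.8 to 58.2%) also overlapped OPC and microglia (57.1 to 77.2%). Oligodendrocytes, committed precursors, mural cells and fibroblasts lay above every neuronal library. The share was 94.2% ± 1.5 in oligodendrocytes, 73.1% in committed precursors and 61.5% in OPC, a mean that was larger at each step of that lineage, although OPC (53.2 to 74.1%) and committed precursors (63.0 to 80.8%) overlapped. Among neurons it ran from 24.6% ± 2.6 in Pvalb interneurons to 42.2% ± 1.6 in L6 CT neurons, and the ranges of these types did not overlap (20.8 to 27.9% and 39.2 to 44.8%).

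The alpha subunits of the GABA-A receptor, which shape the GABA site and kinetics, had different mixes in different neurons. Shares are of the UMIs of Gabra2, Gabra3, Gabra4 and Gabra5 together and are compared for 1 gene between types. Gabra2 took 54.1% ± 2.3 in L2/3 IT, 62.2% ± 3.0 in Vip, 78.6% ± 3.3 in astrocytes and 15.3% ± 4.3 in Pvalb interneurons. Pvalb interneurons in turn had the largest mean share of Gabra4 (43.2% ± 4.4), whose libraries (36.6 to 49.4%) overlapped Lamp5 interneurons (33.9 to 44.1%) among others. Gabra3 was largest in Sst interneurons (32.5% ± 5.6), OPC (30.3% ± 2.9) and Pvalb interneurons (29.5% ± 2.6), which overlapped, and smallest in astrocytes (3.2%). Gabra5, the subunit of many extrasynaptic receptors, took 36.2% ± 7.5 in L6b neurons and 22.2% ± 4.2 in Lamp5 interneurons, against 3.7% in L4/5 IT neurons. The L6b range of 25.3 to 48.2% overlapped that of Lamp5 interneurons, 15.7 to 27.4%.

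**Figure D2:**
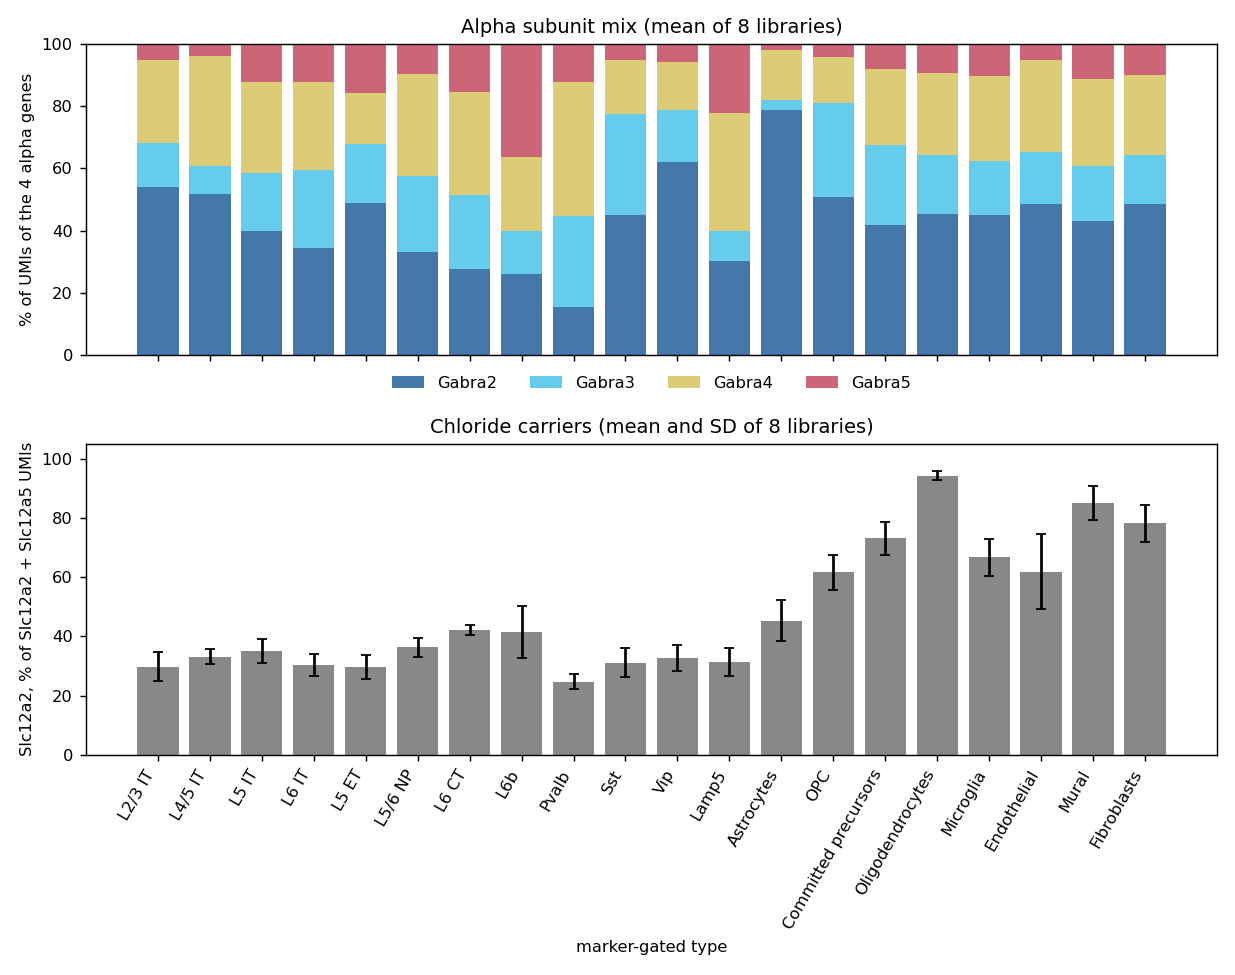
Top: share of each alpha gene in the UMIs of Gabra2, Gabra3, Gabra4 and Gabra5, stacked to 100%, mean of 8 libraries in 20 types; bottom: share of Slc12a2 in the UMIs of Slc12a2 and Slc12a5, bar and error bar for mean and SD of 8 libraries. A colour is to be compared between types: Gabra5 (red) is widest in L6b and Gabra2 (blue) in astrocytes, and the Slc12a2 bar is tallest in oligodendrocytes (94.2%).

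As levels, the alpha genes were less sharply divided. In lowest, median and highest library, Gabra2 had 349.6, 426 and 555 CPM in astrocytes, its highest type, and L2/3 IT neurons with 369 to 446 CPM overlapped them. Gabra3 had 111, 136 and 172 CPM in L6 IT, Gabra4 165, 204 and 221 CPM in L2/3 IT and Gabra5 67.1, 121 and 162 CPM in L6b neurons, and each overlapped its next type. The order of the first types of these 4 genes was thus not resolved.

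Beta, gamma and delta subunits were highest in astrocytes or in single interneuron types. Gabrb1 was highest in astrocytes (3091, 3391 and 4071 CPM in the lowest, median and highest library), clear of L5/6 NP neurons with 1299 to 2164 CPM. Of the UMIs of Gabrb1 and Gabrb2, Gabrb1 took 98.1% ± 0.58 in astrocytes, 35.8% ± 3.5 in Lamp5 and 29.7% ± 3.3 in Pvalb interneurons. Sst (65.2%) and Vip (56.9%) interneurons lay within the 52.6 to 85.1% of the excitatory types. Gabrb2 was highest in Lamp5 interneurons, with 946, 1143 and 1278 CPM in the lowest, median and highest library, clear of Pvalb interneurons with 653 to 803 CPM. Gabrg1 was highest in astrocytes (45.3, 79.8 and 118 CPM in the lowest, median and highest library) and next in OPC (36.5 ± 7.89), while the 8 excitatory types had 1.7 to 6.3 CPM. It took 28.5% ± 11 of the UMIs of Gabrg1, Gabrg3 and Gabrd in astrocytes.

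Gabrg3 covered a wide span among neurons. It had 2707, 3496 and 3894 CPM in the lowest, median and highest library of Lamp5 interneurons, 2675 ± 115 CPM in Pvalb interneurons, and 245 ± 44.8 CPM in L4/5 IT neurons. Gabrd, whose receptors carry tonic currents, was highest in Pvalb interneurons (77.8, 103 and 119 CPM in the lowest, median and highest library), clear of Lamp5 with 41.1 to 58.9 CPM. L2/3 IT neurons had 39.1 ± 3.78 CPM and L4/5 IT neurons 34.4 ± 9.05 CPM of Gabrd.

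Receptor subunits of the GABA-B type were spread more evenly than their KCTD partners. Gabbr1, the subunit that binds GABA, had 194, 221 and 262 CPM in the lowest, median and highest library of oligodendrocytes and a mean of 226 ± 31.9 CPM in astrocytes, and its 12 neuronal types lay between 79.4 and 125 CPM. Gabbr2, the subunit that couples to G proteins, was highest in Lamp5 interneurons (542, 738 and 1012 CPM in the lowest, median and highest library), overlapping L6 CT neurons (489 to 909.8 CPM), and lowest in oligodendrocytes (85.1 CPM).

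KCTD proteins set how fast and how long GABA-B receptors signal. Kctd16 was highest in Lamp5 interneurons (3033, 3967 and 4517 CPM in the lowest, median and highest library), clear of L4/5 IT neurons at 2071 to 2863 CPM. L6b neurons had 225 ± 122 CPM, the lowest mean of any neuronal type. Kctd8 was highest in Sst interneurons (486, 546 and 664 CPM in the lowest, median and highest library), followed by L5 ET neurons (297.5 ± 73.9) and Pvalb interneurons (287 ± 46.0), and took 31.6%, 37.6% and 26.7% of the UMIs of the 3 KCTD genes in them. Kctd12 was highest in microglia, with 91.9, 107 and 129 CPM in the lowest, median and highest library, clear of endothelial cells with 8.53 to 74.5 CPM.

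Glycine receptor alpha genes differed in their highest types. Glra2 was highest in Vip interneurons (110, 141 and 174 CPM in the lowest, median and highest library) and was 102 ± 20.6 CPM in L6b, 96.1 ± 35.4 in L5/6 NP and 69.7 ± 12.9 in L6 CT neurons, against 2.88 ± 0.977 in L2/3 IT and 2.12 ± 0.793 in L4/5 IT neurons. Glra3 was highest in L2/3 IT neurons but did not mirror Glra2 by level, since L6b (13.1 CPM) and L4/5 IT neurons (10.5 CPM) had overlapping levels of it. Of the UMIs of Glra1, Glra2 and Glra3 it took 90.3% ± 3.5 in L2/3 IT neurons and 7.46% ± 2.9 in L6 CT neurons. Glra1, the adult spinal form, was near the limit of detection, with 2.69, 5.28 and 17.1 CPM in the lowest, median and highest library of Vip interneurons from 50 UMIs in all. Glrb, the beta subunit that binds gephyrin, was highest in committed oligodendrocyte precursors (198, 295 and 421.5 CPM in the lowest, median and highest library), clear of Pvalb interneurons with 86.9 to 167 CPM. Gphn, gephyrin, was highest in astrocytes (1216, 1503 and 1632 CPM in the lowest, median and highest library), clear of Vip interneurons with 838 to 949 CPM. Excitatory types had 475.5 to 632 CPM of Gphn.

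By type, Glra3 was highest in L2/3 IT neurons, where the lowest, median and highest library had 26.5, 40.6 and 71.4 CPM. Sst interneurons came next with 26.7 ± 3.27 CPM (22.8 to 32.6). The ranges overlapped, but L2/3 IT lay above Sst in 8 of 8 libraries. All other types had means between 3.26 CPM in astrocytes and 13.1 CPM in L6b neurons, and neighbours in this order overlapped throughout. L2/3 IT neurons held 45.8% of all Glra3 UMIs with 12.3% of the nuclei, and unassigned nuclei held another 29.9% with 35.5% of the nuclei. Over libraries the L2/3 IT share ran from 23.9 to 54.6%. In Chd8het male 2, the lowest, unassigned nuclei held 48.1% of the Glra3 UMIs. Within L2/3 IT, nuclei with a UMI of Otof, a marker of upper-layer neurons, had more Glra3 than those without in 8 of 8 libraries, by 1.19 to 1.56 times. Otof is itself on the L2/3 IT marker list used for the assignment. Median depths ran from 8790 to 11860.5 UMIs with an Otof UMI and from 8416 to 11389 without. Depth was higher with an Otof UMI in every library but Chd8het male 1 (8790 and 8794), as in WT female 1 (9265.5 and 8416).

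Glra3 (ENSMUSG00000038257, chromosome 8, 55940460 to 56130070, plus strand, GRCm38) was higher in the Chd8het libraries. Values of the 4 libraries of a genotype are listed from here on as male replicate 1, male 2, female 1, female 2. Over all nuclei WT had 14.7, 12.4, 15.8 and 13.3 CPM, and Chd8het 21.6, 21.6, 24.7 and 23.4 CPM. The groups did not overlap (the same was so for 1.56% of all genes), and the log2 change (Chd8het minus WT, from the edgeR fit) was 0.67 with a standard error (SE) of 0.07. It was 0.61 among single-indexed libraries and 0.80 among dual-indexed ones. In L2/3 IT neurons the WT libraries had 36.3, 26.5, 45.0 and 31.9 CPM and the Chd8het libraries 60.3, 35.0, 71.4 and 62.2 CPM. There the groups overlapped because Chd8het male 2 lay within the WT range, while the Chd8het library was higher in 4 of 4 comparisons at the same sex and replicate number (log2 0.68, SE 0.11). Without Chd8het male 2 the log2 change was 0.79. Within each index type it was also positive, 0.70 and 0.74. Marker lists of other cells moved either way in L2/3 IT nuclei. Sums of the 5 Sst markers (5 higher) averaged 37.9 CPM in WT and 50.1 in Chd8het, overlapping. The 4 OPC markers (4 higher) averaged 7.37 and 10.3 CPM without overlap. The 7 striatal markers (0 higher) averaged 1370 and 988 CPM, and the 6 L2/3 IT markers (4 higher) 667 and 681 CPM, both overlapping. Their part in the Glra3 difference was not tested. Glra3 was chosen for its difference in these libraries, so none of these values is a test of it.

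The estimated Glra3 difference is given for each further type where it passed the count filter. Log2 changes were 0.80 (SE 0.17) in L4/5 IT, 0.45 (SE 0.15) in L5 IT, 0.52 (SE 0.23) in L5 ET, 0.81 (SE 0.26) in Pvalb, 0.24 (SE 0.15) in Sst and 0.09 (SE 0.21) in L6 CT nuclei. The groups overlapped in L4/5 IT (473 UMIs), L5 ET (199), Pvalb (128) and L6 CT nuclei (284). Whether these changes differ from each other was not tested. Glra3 was at 5.99 ± 2.77 CPM in Pvalb and 46.1 ± 16.5 CPM in L2/3 IT nuclei. The excitatory gene Slc17a7 was at 41.4 and 217 CPM in these types, all libraries summed. The part of RNA from other neurons in the Pvalb value was not tested. In Sst interneurons, its highest interneuron type, WT libraries had 23.3, 22.8, 25.7 and 25.0 CPM and Chd8het libraries 29.0, 32.6, 26.5 and 28.8 CPM, without overlap, as in L5 IT neurons. Of all genes 1.8% in Sst and 1.81% in L5 IT nuclei did not overlap. The L6 CT value turned to -0.05 with 1 library left out, so no direction is given there. In the other 12 tested types Glra3 was under the count filter. L5/6 NP neurons had 4.49 ± 2.77 CPM in WT and 19.4 ± 19.5 in Chd8het (n = 4 each, 92 UMIs). The libraries had 1.55, 7.68, 2.91 and 5.81 CPM in WT and 15.9, 47.1, 1.30 and 13.4 CPM in Chd8het. Chd8het male 2 was the highest, without which the Chd8het mean was 10.2 CPM, and Chd8het female 1 was below every WT library. Astrocytes had 2.71 ± 1.38 and 3.80 ± 1.39 CPM (44 UMIs). In L2/3 IT nuclei with an Otof UMI Glra3 was 40.5 ± 8.65 CPM in WT and 66.7 ± 16.6 in Chd8het, and in those without it was 31.5 ± 7.87 and 51.1 ± 16.9 CPM (n = 4 each).

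**Figure D3:**
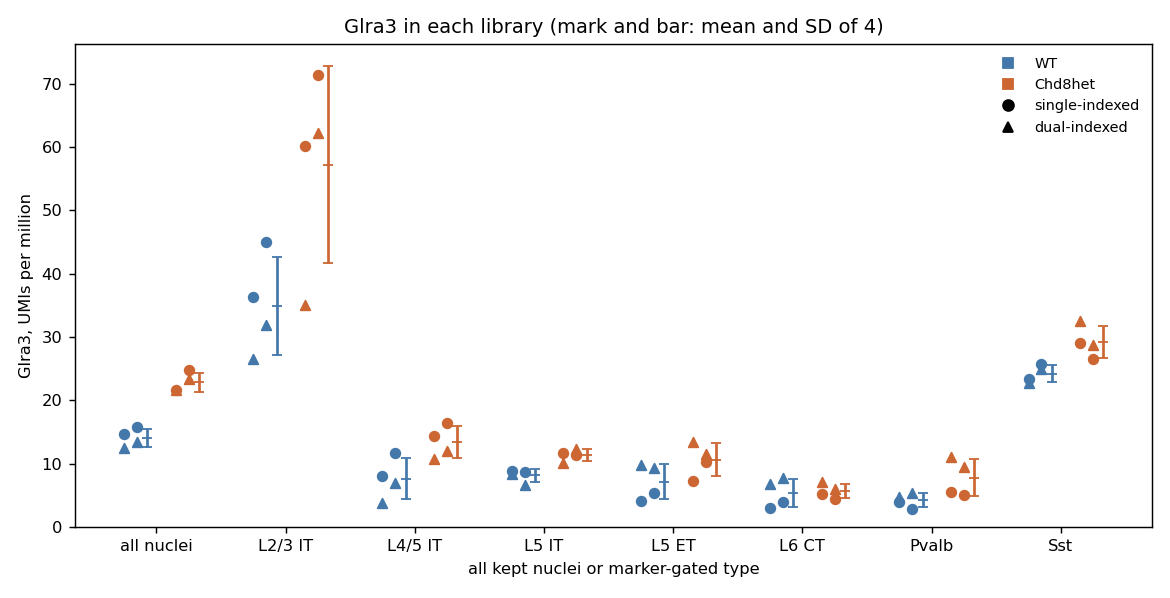
Glra3 level (CPM) in each library over all nuclei and in the 7 types where it passed the count filter; circles are single-indexed and triangles dual-indexed libraries, and the mark and bar beside them are the mean and SD of 4 libraries. Chd8het points (orange) lie above all WT points (blue) in all nuclei, L5 IT and Sst, and overlap them in L2/3 IT through Chd8het male 2 (35.0 CPM).

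All members were then compared between genotypes, in all nuclei and in the 19 types with at least 20 nuclei in every library. With UMIs summed per library, edgeR with terms for sex and index type tested 403 combinations of member and type, and 7 were called at an adjusted p under 0.05, all higher in Chd8het. In the same fits 0.166% of all tests were called. At an unadjusted p under 0.05 were 66 of the 403 (16.4%), against 6.21% of all tests, and Glra3, chosen for its difference, is counted among them. Oligodendrocytes held 11 of 22 members at this limit (12.6% of all genes) and microglia 12 of 22 (11.3% of all genes). The members were chosen with earlier results of these data known, so these shares are a description. Groups did not overlap in 20 of the 403, Glra3 in L5 IT and Sst nuclei included, against 2.24% of all tests. In all nuclei 0 of 27 members were called by edgeR (0.0% of all genes), 3 had an unadjusted p under 0.05 (5.71% of all genes did), Glra3 among them, and DESeq2, which called 0.122% of all genes, called no member other than Glra3, for which this is no test because it was chosen for its difference. Of the 7 calls, 6 were in oligodendrocytes and 1 in L6b neurons.

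**Figure D4:**
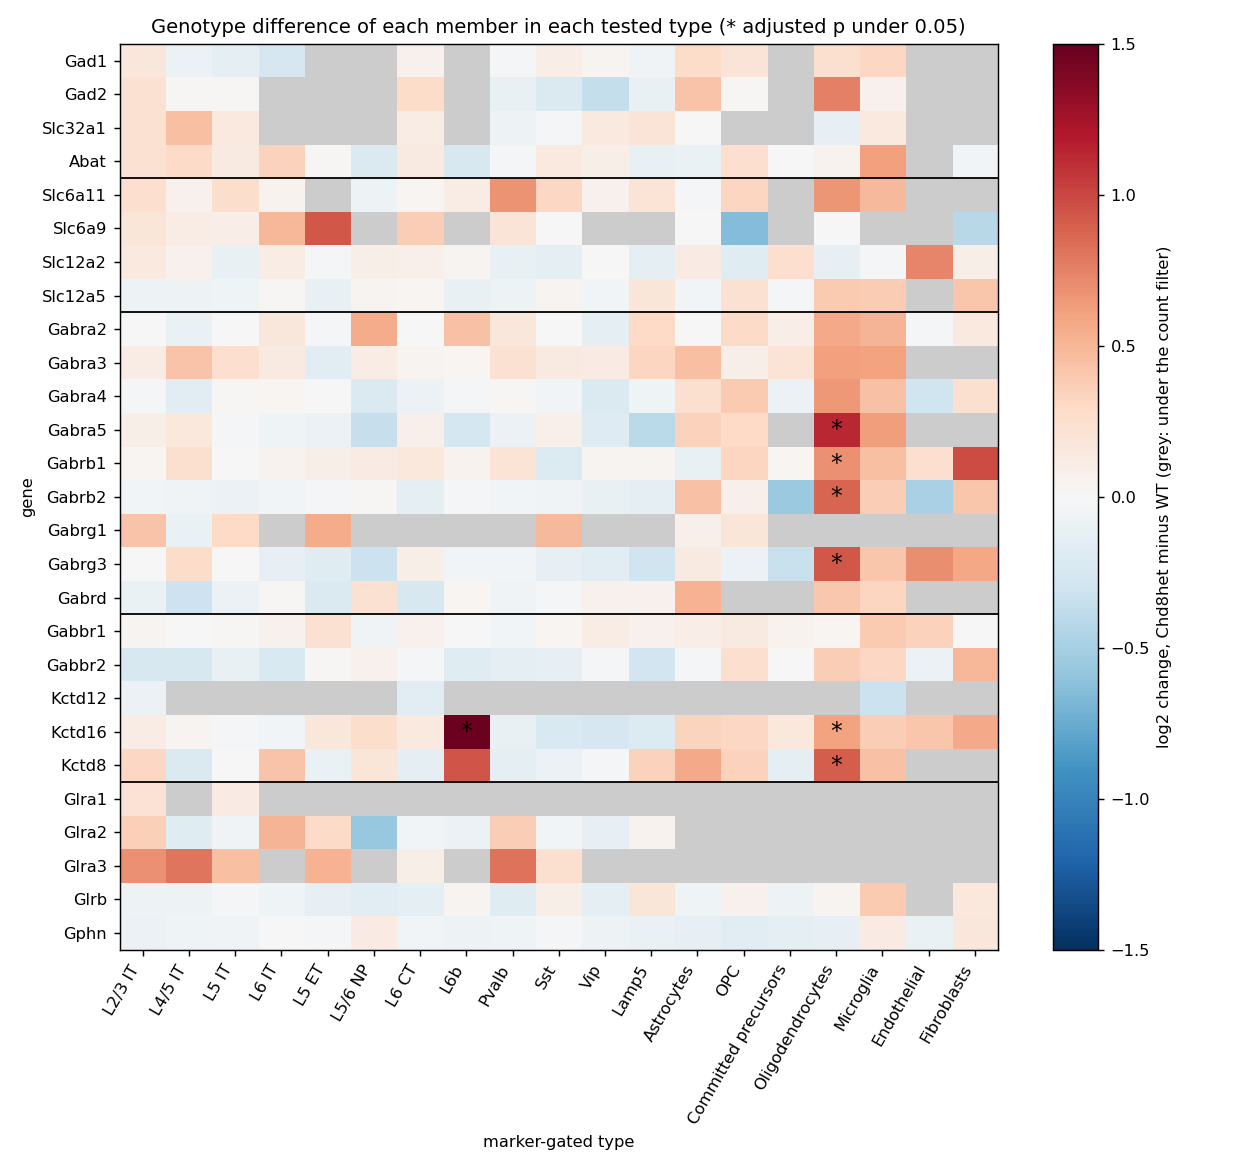
Log2 change (Chd8het minus WT, colour) of each member in the 19 tested types, with grey where a gene was under the count filter and a star at an adjusted p under 0.05. The 7 stars stand at Kctd16 in L6b and at 6 members in the oligodendrocyte column, and the oligodendrocyte and microglia columns are mostly red.

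In oligodendrocytes, the myelinating cells, 6 of 22 tested members rose in Chd8het and none fell, where 2.35% of all genes tested were called and 2.14% were called higher. In 5 of the 22 the groups did not overlap, against 4.41% of all genes. The median log2 change of the 22 was 0.49, against -0.01 for all genes. Gabrg3 (ENSMUSG00000055026, chromosome 7, 56716465 to 57387188, minus strand) had 78.3, 109, 97.3 and 120 CPM in WT and 153, 221, 170 and 255 CPM in Chd8het. All Chd8het libraries lay above all WT libraries (log2 0.93, SE 0.10, adjusted p 1.64e-04, edgeR). Gabrb2 had 43.8, 54.0, 48.4 and 63.2 CPM in WT and 96.3, 92.1, 74.6 and 129 CPM in Chd8het, also without overlap (log2 0.87, SE 0.13, adjusted p 0.00164, edgeR). Gabrb1 had 104, 98.2, 106 and 147 CPM in WT and 155, 199, 153 and 254 CPM in Chd8het, where WT female 2 lay just below the lowest Chd8het library (log2 0.69, SE 0.12, adjusted p 0.00288, edgeR). These 3 subunit genes were called with any single library left out.

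Kctd16, Gabra5 and Kctd8 passed less firmly. Kctd16 had 145, 140, 222 and 178 CPM in WT and 203, 292, 229 and 355 CPM in Chd8het, with overlapping groups (log2 0.61, SE 0.14, adjusted p 0.0222, edgeR). Among single-indexed libraries its log2 change was 0.24 and among dual-indexed ones 1.02. Kctd8 had 17.9, 19.8, 18.6 and 31.6 CPM in WT and 52.6, 28.5, 38.6 and 49.4 CPM in Chd8het (log2 0.91, SE 0.21, adjusted p 0.0288, edgeR). Gabra5 counted only 169 UMIs, at 5.55, 7.25, 4.26 and 9.10 CPM in WT and 11.9, 12.01, 16.1 and 18.8 CPM in Chd8het (log2 1.13, SE 0.26, adjusted p 0.0231, edgeR). Gabra5 and Gabrb1 are overlapped by annotated genes on the opposite strand, Gabrb1 by Gabra4 and Gm38562, and reads in the overlaps cannot be told apart without knowing whether strand was used in counting. With 1 library left out, Kctd16 was called in 2 of 8 cases (without either female replicate 1), Gabra5 in 2 (without WT female 2 or Chd8het male 2) and Kctd8 in 3 (without WT female 2, Chd8het male 2 or Chd8het female 1). In the other cases the adjusted p was 0.0574 to 0.178 for Kctd16, 0.0534 to 0.109 for Gabra5 and 0.0908 to 0.131 for Kctd8 (edgeR), with log2 changes of at least 0.48, 0.93 and 0.64. Other members in oligodendrocytes did not pass: Gabra4 (log2 0.65, SE 0.17, adjusted p 0.059), Gabra2 (0.57, SE 0.16, adjusted p 0.0728), Gabbr2 (0.37, SE 0.11, adjusted p 0.111) and Gad2 (0.75, SE 0.30, adjusted p 0.276, all edgeR). The Gabbr2 change turned negative with predicted doublets kept.

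**Figure D5:**
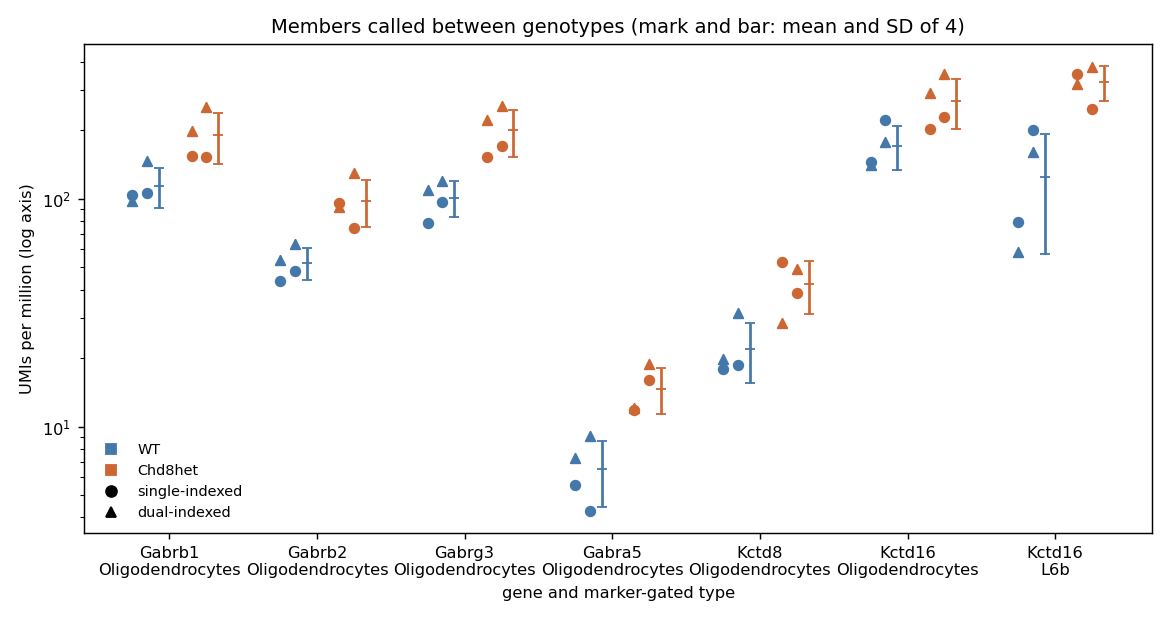
Level (CPM, log axis) of the 7 called combinations of member and type in each library, with circles for single-indexed and triangles for dual-indexed libraries and the mean and SD of 4 beside them. WT (blue) and Chd8het (orange) points are apart for Gabrb1, Gabrb2, Gabrg3 and Gabra5 in oligodendrocytes and for Kctd16 in L6b, and overlap for Kctd8 and Kctd16 in oligodendrocytes.

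These oligodendrocyte levels were low beside those of neurons: Gabrg3 reached 18.8%, Gabrb1 18.3%, Gabrb2 16.1%, Kctd8 17.1%, Kctd16 9.7% and Gabra5 29.2% of the L2/3 IT level. Of the 245 genes called higher in oligodendrocytes, 237 (96.7%) had a higher level in L2/3 IT neurons than in oligodendrocytes. Among the genes called lower it was 3 of the 23, out of 24, that could be matched by name. The share over all genes tested there was not computed, so how far 96.7% stands from it is not known. All 6 listed excitatory markers had a higher mean in the Chd8het oligodendrocytes, with a summed level of 277 to 402 CPM in WT and 334 to 561.5 CPM in Chd8het, overlapping, and none was at 0. Of the marker lists read in oligodendrocytes, only that of Lamp5 interneurons, the highest type of Gabrg3, Gabrb2 and Kctd16, did not overlap. All 5 had a higher mean in Chd8het oligodendrocytes, with sums of 44.8 to 57.3 CPM in WT and 60.8 to 92.5 CPM in Chd8het and none at 0. Other interneuron lists overlapped. Their sums averaged 4467 CPM in WT and 4349 in Chd8het for the 7 broad interneuron markers (5 higher). That list holds Erbb4, whose median UMI count in oligodendrocytes was above 0, so this sum is not read as interneuron RNA. For the 6 Vip markers (4 higher) sums averaged 192 and 189 CPM, for the 5 Sst markers (4 higher) 81.2 and 90.4 CPM, and for the 6 Pvalb markers (5 higher) 19.6 and 26.3 CPM. The list of each excitatory type averaged higher in Chd8het, with overlap. Averages were 266 and 371 CPM for the 5 L6 CT markers (5 higher), 179 and 188 CPM for the 6 L2/3 IT markers (6 higher) and 37.3 and 42.3 CPM for the 7 L5 ET markers (4 higher). Slc17a7 alone was at 89.4, 69.8, 92.0 and 90.1 CPM in WT and 119, 111, 116 and 60.4 CPM in Chd8het, so that it was lowest of all in Chd8het female 2, the library with the highest Gabrg3, Gabrb1, Gabrb2, Gabra5 and Kctd16. The 6 oligodendrocyte markers (0 higher) summed to 16709 to 19987.5 CPM in WT and 15525 to 18769.5 in Chd8het, overlapping. The part of neuronal RNA in these calls was not tested.

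The oligodendrocyte calls depended on 2 choices. With predicted doublets kept, which made up 10.1% to 15.5% of the nuclei then in this type, none of the 6 members was called and the log2 changes were 0.34 for Gabrg3, 0.28 for Gabrb1, 0.17 for Gabrb2, 0.37 for Gabra5, 0.27 for Kctd8 and 0.11 for Kctd16. In that fit 0 of 12541 genes were called in oligodendrocytes, against 2.35% in the main model. Without a term for index type none of the 6 was called either, while the log2 changes stayed at 0.63 to 1.12 and the adjusted p was 0.103 to 0.25 (edgeR). There 2 of 11444 genes (0.0175%) were called in oligodendrocytes, so the loss of calls was general to the type under both choices.

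In microglia no member was called in the model above. Of 22 tested members 20 had a positive log2 change, with a median of 0.39 against 0.00 for all genes, and 12 had an unadjusted p under 0.05 (11.3% of all genes did), but 0 were called (0.0205% of all genes). Groups did not overlap in 4 of the 22, against 3.59% of all genes. Gabra2 had 67.4, 80.2, 67.8 and 75.6 CPM in WT and 94.5, 122, 95.1 and 95.3 CPM in Chd8het, without overlap (log2 0.50, SE 0.15, adjusted p 0.196, edgeR). Gabrb1 (0.45, SE 0.14, adjusted p 0.206), Gabrg3 (0.42, SE 0.16, adjusted p 0.328), Kctd16 (0.37, SE 0.16, adjusted p 0.392) and Slc12a5 (0.38, SE 0.17, adjusted p 0.406, all edgeR) overlapped between genotypes. Kctd16 was -0.04 among single-indexed libraries and 0.72 among dual-indexed ones, and 0.16 without WT female 2, while Slc12a5 was 0.61 and 0.07 by index type. Some passed under an alternative: Gabra2 with the stricter nucleus filter (adjusted p 0.0321), Gabrb1 and Gabrg3 without WT female 1 (0.0332 and 0.0196) and Kctd16 with doublets kept (0.0428, all edgeR). In the same fits 1.74%, 1.47% and 0.562% of all genes were called in microglia. Of the 6 excitatory markers 5 had a higher mean in Chd8het microglia, with sums of 632 to 852 CPM in WT and 706 to 1067 CPM in Chd8het and none at 0, while all 7 microglial markers had a lower mean (sums of 7486 to 9980 and 5427 to 8344 CPM). Both ranges overlapped, and their part in these values was not tested. Kctd12, the KCTD gene of microglia, had the other sign: 113, 115, 129 and 124 CPM in WT and 101, 92.0, 91.9 and 95.3 CPM in Chd8het, without overlap (log2 -0.32, SE 0.14, adjusted p 0.37, edgeR).

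Kctd16 rose in L6b neurons, the deepest cortical neurons and heirs of the subplate, as the only called member outside oligodendrocytes (1 of 19 tested, where 0.316% of all genes were called and 0.256% called higher). Kctd16 (ENSMUSG00000051401, chromosome 18, 40256962 to 40531630, plus strand) had 79.2, 58.2, 201 and 160 CPM in WT, and 354, 321, 249 and 380 CPM in Chd8het. The WT males were lowest, and every Chd8het library lay above every WT library, as for 2.69% of all genes (log2 1.47, SE 0.23, adjusted p 0.00207, edgeR). Among single-indexed libraries the log2 change was 1.10 and among dual-indexed ones 1.68. It was called under each alternative run and with any single library left out (1.21 to 1.77). The type was small, with 34 to 69 nuclei per WT library and 40 to 63 per Chd8het library. Kctd16 is at 1312 ± 122 CPM in L5 IT and 2335 CPM in L2/3 IT neurons, and the 3 listed L5 IT markers summed to 75.2 to 104 CPM in WT L6b and 131 to 232 CPM in Chd8het L6b, without overlap, with 2 of the 3 higher and mainly through Il1rapl2 (67.9 and 141 CPM on average), with none at 0. The 6 Pvalb markers (3 higher) summed to 23.3 to 33.4 CPM and 45.1 to 65.4 CPM, also apart, the 6 L2/3 IT markers (5 higher) to 10.2 to 41.4 CPM and 37.2 to 61.2 CPM, overlapping, and the 5 L6 CT markers to 4132 to 5376 CPM and 3212 to 4149 CPM. Sums of the 6 L6 IT markers (1 higher) averaged 598 CPM in WT and 493 CPM in Chd8het, overlapping. Those of the 6 broad excitatory markers (3 higher) averaged 1296 and 1219 CPM, also overlapping. The L6b markers themselves summed to 750 to 1465 CPM in WT and 610 to 1155 CPM in Chd8het. The part of other neurons in the Kctd16 difference was not tested. Kctd16 is overlapped by annotated genes on the opposite strand, AC098707.1 and AC132357.1, whose reads cannot be told apart from its own without knowing whether strand was used in counting.

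In the remaining types no member was called by edgeR. Within L2/3 IT neurons 27 members were tested, 0 were called (0.0125% of all genes) and 4 had an unadjusted p under 0.05 (6.09% of all genes did), Glra3 among them. DESeq2 called 0.169% of all genes there and again no member other than Glra3. Members with a small p in their role, or called under an alternative, are given as values. Slc6a9 in L5 ET neurons was 4.50 ± 0.804 CPM in WT and 9.23 ± 2.64 in Chd8het, without overlap, as for 2.6% of all genes (log2 0.93, SE 0.28, adjusted p 0.398, edgeR, n = 4 each). Gabrb1 in fibroblasts was 121 ± 42.4 and 243 ± 78.3 CPM (log2 0.98, SE 0.29, adjusted p 0.477, edgeR). It passed in edgeR with no count filter (adjusted p 0.0104) and without Chd8het female 2 (log2 1.28, adjusted p 0.0210). In the same nuclei the 7 interneuron markers (6 higher) averaged 251 CPM in WT and 508 in Chd8het, the 6 oligodendrocyte markers (6 higher) 375 and 678 CPM, and the 8 fibroblast markers (1 higher) 6571 and 5336 CPM, with overlapping ranges. Their part in the Gabrb1 difference was not tested. Slc12a2 in endothelial cells was 74.5 ± 18.7 and 136 ± 89.8 CPM, from 116 UMIs (log2 0.74, SE 0.31, adjusted p 1, edgeR). Chd8het male 2 had 264 CPM and the other 7 libraries 49.7 to 124, and the log2 change was 0.49 without that library and 0.48 without WT male 2. Gad2 in Vip interneurons was 190 ± 52.1 and 151 ± 8.37 CPM (log2 -0.36, SE 0.14, adjusted p 0.848, edgeR), which was 0.06 among single-indexed libraries and -0.64 among dual-indexed ones. Abat in L2/3 IT neurons was 22.4 ± 2.44 and 26.8 ± 1.70 CPM (log2 0.23, SE 0.09, adjusted p 0.716, edgeR). Kctd16 in astrocytes was 181 ± 34.2 and 235 ± 95.3 CPM (log2 0.33, SE 0.21, adjusted p 0.91, edgeR) and was 375 CPM in Chd8het male 2, without which the log2 change was -0.03.

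Subunit shares were also set side by side between genotypes, without a test. In L2/3 IT neurons Gabra2 made up 54.4% of the alpha UMIs in WT and 53.8% in Chd8het. Over the types with at least 1000 UMIs of a set, the largest difference of an alpha share was 9.76 percentage points, for Gabra2 in L5/6 NP neurons (28.3% and 38.1%), and it rested on 1 library. Chd8het male 2 had 57.7% and the other 7 libraries 26.7 to 35.5%. Without it the difference was 3.21 points. The largest difference of the Slc12a2 share was -5.34 points in microglia (69.3% and 64.0%), where the SD was 6.19. Other alpha shares differed by more than their SD over 8 libraries, among them Gabra5 in Lamp5 interneurons (25.3% in WT and 19.1% in Chd8het, SD 4.24), Gabra2 in L6b neurons (22.3% and 29.97%, SD 5.64) and Gabra3 in L4/5 IT neurons (7.52% and 10.6%, SD 1.83). So did shares in other sets. Kctd12 in microglia took 22.8% of the KCTD UMIs in WT and 15.9% in Chd8het (SD 5.10). Gabrb2 in committed precursors took 35.8% and 28.3% of the beta UMIs (SD 5.37), and Gabrg3 in L4/5 IT neurons 84.3% and 88.5% of the gamma and delta UMIs (SD 3.20). An SD over 8 libraries includes any genotype difference, and how many of all shares exceeded it was not counted. These shares are examples, and no shift of subunit mix is read from them.

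Of the other genes of these pathways, a list of 56 held further receptor subunits, transporters, gephyrin partners, chloride carrier kinases, glutamine and glycine enzymes and the potassium channels that GABA-B receptors open. In 698 tests over the 19 types 5 were called (0.166% of all tests), all higher in Chd8het oligodendrocytes, and 6.88% had an unadjusted p under 0.05 against 6.21% of all tests. Kcnj6, a GIRK channel subunit, rose without overlap (37.5 ± 8.08 and 61.1 ± 5.90 CPM, log2 0.67, SE 0.12, adjusted p 0.0069, edgeR). The GIRK subunit Kcnj3 (log2 0.51, SE 0.12, adjusted p 0.0376) and the G protein regulator Rgs7 (log2 0.56, SE 0.11, adjusted p 0.00967, both edgeR) rose too, with overlapping groups, each higher in 4 of 4 comparisons at the same sex and replicate number. The Kcnj3 call held in 2 of 8 cases with 1 library left out (adjusted p up to 0.207, edgeR) and not in DESeq2 (0.0718), and the Rgs7 call held in 7 of 8 (0.0816 without Chd8het male 1). Without the index term 0 of the 56 were called in any type, and with doublets kept 1.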

How the data were processed

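The deposited files hold whole-number UMI counts per gene and barcode for 8 libraries. Per the submitters' processing notes they were made with STAR 2.7.9a, STARsolo, Cell Ranger and mm10, and the use of strand and of intron reads in counting is not described. The 27 members and all lists were chosen with earlier results of these data known. Of 97772 barcodes, 82168 had at least 500 genes and at most 5% mitochondrial UMIs, and 4000 doublets predicted with Scrublet (scanpy 1.11.5) were removed. Of the kept nuclei, 1443 (1.85%) carried a barcode found in more than 1 library.

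Nuclei were assigned by a negative binomial likelihood over 133 markers (posterior at least 0.9, at least 3 own markers, 2 from a subclass list), and 1695 lay near this limit. L5/6 NP nuclei also needed a UMI of Slc17a8 or Trhr, a rule added after 2478 nuclei had been assigned there. UMIs were summed per library and type and tested with the edgeR 4.0.16 quasi-likelihood test (R 4.3.3; TMM scaling; filterByExpr with minimum count 10; terms sex, index type and genotype; two-sided), with Benjamini-Hochberg adjustment over all genes of a type and a call at an adjusted p under 0.05. SE were derived from the F statistic. Its p-values set the genotype difference against the spread between libraries that is left after the terms for sex and index type. The fit was tested on simulated counts. DESeq2 1.42.0 and the other alternatives are in the closing section.

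Genotype values are given for every member and type called in any fit, for Glra3 throughout and for the 3 smallest p in each role. Coordinates are GENCODE M21 on GRCm38. Of the members, 9 overlap a gene on the opposite strand. Results of some partner genes are not reported here.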

Additional observations from a re-analysis of the deposited data

Results flagged for a closer look

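In 9 of 116 groups of 4 libraries tested, 1 library stood apart from the other 3 by more than Dixon's 95% limit on the gap as a share of the range. Chance alone gives about 1 in 20. Chd8het male 2 was the library in 4 of the 9. In Lamp5 interneurons it had 946 CPM of Gabrb2 against 1122 to 1147 CPM in the other Chd8het libraries, and 3033 CPM of Kctd16 against 3944 to 3971 CPM. In microglia it had 122 CPM of Gabra2 against 94.5 to 95.3 CPM and 452 CPM of Gabrb1 against 251 to 280 CPM. In oligodendrocytes WT female 2 was above the other WT libraries, with 147 CPM of Gabrb1 (others 98.2 to 106) and 31.6 CPM of Kctd8 (others 17.9 to 19.8), which narrows both genotype differences. WT female 1 had 668 CPM of Gad2 in Lamp5 interneurons (others 754 to 757). Chd8het female 1 had 401 CPM of Glrb in committed precursors (others 284 to 297), and Chd8het female 2 had 24.3 CPM of Abat in L2/3 IT neurons (others 27.6 to 27.7).

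The genotype difference of Kctd16 in fibroblasts differed between the sexes. The log2 change in males exceeded that in females by 1.79 (adjusted p 0.0360, the sex by genotype term in edgeR). WT males had 166 and 155 CPM and Chd8het males 325 and 601 CPM, higher in 2 of 2. WT females had 375 and 498 CPM and Chd8het females 371 and 355 CPM. All 8 libraries together counted 926 UMIs. The same term was called for 24 of 6238 genes in fibroblasts. Markers of other cells also differed there between genotypes in the mean: the 7 interneuron markers summed to 251 CPM in WT and 508 CPM in Chd8het (6 higher), the 6 oligodendrocyte markers to 375 and 678 CPM (6 higher) and the 8 fibroblast markers to 6571 and 5336 CPM (1 higher), with overlapping libraries. Their part in the Kctd16 difference was not tested.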

How the results depend on the processing

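Over the 19 types, the main model called 318 of all tests, 7 members and 5 partner genes, and 6 members in oligodendrocytes. Without a term for index type these counts were 7, 1, 0 and 0. With predicted doublets kept they were 151, 4, 1 and 0, without a count filter 1389, 13, 6 and 8, and with the stricter nucleus filter 481, 8, 7 and 6. Some member counts hold calls of Glra3, which was chosen for its difference, so that they are no test of it. These were in astrocytes with doublets kept, in L2/3 IT, L4/5 IT and L5/6 NP nuclei without a count filter, and in L2/3 IT nuclei by DESeq2. In all nuclei edgeR called 0 genes and 0 members (1216 and 3 at an unadjusted p under 0.05, Glra3 among the 3). DESeq2 called 26 and 1 there, the member being Glra3. DESeq2 size factors, the DESeq2 test over types and a larger margin of type assignment kept these counts within 1.5 times. With 1 library left out, counts for all genes were lowest, 114, when WT male 2 was dropped and highest, 480, when Chd8het female 2 was. It was 176 without Chd8het male 1. They were 4 to 9 for members, 2 to 6 for partners and 3 to 6 for members in oligodendrocytes. The count of 3 arose without WT male 1, WT male 2, Chd8het male 1 or Chd8het female 2.

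With a replicate block (a term for each set of the same sex and replicate number) 395 tests, 7 members, 5 partners and 6 members in oligodendrocytes were called. Deviations of libraries of the same sex and number correlated at -0.01 to 0.62 over all nuclei and the types, and those of the same index type but other sex at -0.20 to 0.41. Not every set exceeded 0.1, and the labels do not say which libraries are littermates, so whether the numbers mark pairs is not settled here.

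Gabbr2 in oligodendrocytes was -0.10 with doublets kept, and Kctd16 in astrocytes ran from -0.034 (without Chd8het male 2) to 0.55 in log2 units. With doublets kept, levels in the highest type fell by more than 1 SD for Gabrb1 (3060 CPM) and Gphn (1345 CPM) in astrocytes, Slc12a2 in oligodendrocytes (421 CPM) and Kctd12 in microglia (93.0 CPM). Members and types first called only under an alternative included Gabra2 and Gabra4 in oligodendrocytes (adjusted p 0.00944 and 0.0178, edgeR with no count filter), Gabrb1 in fibroblasts (0.0104, the same) and Kctd16 in astrocytes (0.0263, doublets kept). The causes of these shifts were not tested. Depth limits Glra1 (852 UMIs in all), tested in 2 types, Kctd12 in 3, and Gabrg1 and Glra3 in 7 each.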
